A study of Mus musculus with 4 samples.

Results

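The 10 core circadian clock genes Clock, Per1, Per2, Per3, Cry1, Cry2, Nr1d1, Nr1d2, Dbp and Rora were examined in maps of open chromatin from the paraventricular nucleus of the mouse hypothalamus (PVH). They were taken by name from a RefSeq gene table of 49993 genes, and every deposited peak that overlapped a gene body, or the 20 kb on either side of it, was collected. Overlapping peaks of different libraries were joined into a single region. The 10 genes held 86 of the 67299 regions found over the genome.

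The assay was ATAC-seq, in which a transposase cuts accessible DNA and inserts sequencing adapters, so that promoters and enhancers in use appear as peaks. All mice carried the genotype Otp fl/fl; Ai14, that is, a floxed Otp gene, which encodes a homeodomain factor needed for PVH neurons, and a Cre-dependent tdTomato reporter. They were 12 weeks old, and the PVH was taken 4 weeks after injection. AAV-Cre, which removes Otp from cells that receive the virus, gave 2 libraries, and AAV-GFP, the control, gave 2 libraries. The floxed allele, the reporter and the viral injection were common to both groups. Nuclei were taken from the dissected tissue, and the labels name no step that isolates cells that received the virus, so each library mixes infected and other cells. The labels do not give the promoter of the viruses, the number of animals in a library, the sex or the clock time of dissection. Nor do they say whether replicates are separate animals, so their spread can be technical.

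Mammalian clocks run on a feedback loop of transcription. CLOCK and BMAL1 bind E-boxes and switch on the Per and Cry genes, whose proteins return to the nucleus and block them; REV-ERB and ROR receptors set the rhythm of Bmal1, and DBP carries the rhythm to output genes through D-boxes. The suprachiasmatic nucleus, which lies below the PVH, is the master pacemaker of the brain, and PVH neurons pass its timing on to hormone release, feeding and autonomic output.

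The lists held 23384 and 26612 peaks in the AAV-Cre libraries, against 57682 and 34100 peaks in the AAV-GFP libraries. In this text, values of a group stand in the order replicate 1, replicate 2. No read counts were used, so depth is unknown, and its part in the length of the lists was not tested. The peak names of the library lists carry the word sub, which the labels do not explain. If it means that reads were thinned before peak calling, list lengths and −log10 p would not reflect the depth of sequencing. In bulk tissue, fewer cells with an open site and less opening per cell cannot be told apart. Of 17491 protein-coding genes with a known start, 44.1% had a promoter peak, within 1 kb of a start, in all 4 libraries. Among marker genes, 4 of 5 neuronal promoters were open in all 4 libraries, against 0 of 5 for each of astrocytes, oligodendrocytes, microglia and endothelium. Of 7 PVH markers, the promoter of Pou3f2 was open in all 4 libraries, Otp in 3, Crh in 2 and Sim1 in 1, while Trh, Oxt and Avp had no promoter peak in any. Of 11 suprachiasmatic markers, Syt10 was open in all 4 libraries, 4 were open in 1 to 3, and 6 had no promoter peak, Vip and Nms among them. At Otp itself, the promoter region at chr13:94875130-94875565 had a fold enrichment of 5.52 in the second AAV-Cre library and no peak in the first, against 3.73 and 4.22 in the AAV-GFP libraries. Another Otp region, chr13:94883175-94883578, had no peak in AAV-Cre, against 4.89 and 5.60-fold in AAV-GFP, a pattern of 11.5% of all regions. The remaining Otp regions were each seen in a single AAV-Cre library, at 4.31-fold in the first (chr13:94877155-94877338) and 3.46-fold in the second (chr13:94885304-94885507). These peaks do not check the deletion, since the labels do not say which stretch is floxed.

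Sequence context is shown first for the 5 clock promoters with an E-box, E′-box or D-box match. Each run spans 250 bases before to 50 after a start in the RefSeq promoter table (GRCm38.p6, the build called mm10), read 5′ to 3′ on the gene's strand. Capitals mark CACGTG (the E-box), CACGTT read on either strand (the E′-box, AACGTG on the other strand), TTATGTAA (a D-box) and AGGTCA or its reverse TGACCT (the core hexamer bound by REV-ERB and ROR receptors). The windows are Per1 (first of its starts, chr11:69098699-69098998, plus strand), Per3 (chr4:151044616-151044915, minus strand), Cry1 (chr10:85185005-85185304, minus strand), Cry2 (chr2:92434020-92434319, minus strand) and Nr1d1 (chr11:98775328-98775627, minus strand).
Per1: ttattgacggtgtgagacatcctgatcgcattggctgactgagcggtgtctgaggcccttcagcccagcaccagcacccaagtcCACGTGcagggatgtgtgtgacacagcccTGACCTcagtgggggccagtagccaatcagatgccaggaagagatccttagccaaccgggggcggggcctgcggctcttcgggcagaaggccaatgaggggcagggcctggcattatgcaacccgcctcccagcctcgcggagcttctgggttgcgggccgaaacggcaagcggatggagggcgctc
Per3: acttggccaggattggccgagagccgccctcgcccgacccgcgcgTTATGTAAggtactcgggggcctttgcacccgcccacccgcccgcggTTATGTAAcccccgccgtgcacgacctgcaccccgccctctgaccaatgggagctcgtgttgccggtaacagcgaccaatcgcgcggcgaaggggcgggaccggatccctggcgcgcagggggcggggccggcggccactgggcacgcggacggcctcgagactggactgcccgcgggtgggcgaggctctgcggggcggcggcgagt
Cry1: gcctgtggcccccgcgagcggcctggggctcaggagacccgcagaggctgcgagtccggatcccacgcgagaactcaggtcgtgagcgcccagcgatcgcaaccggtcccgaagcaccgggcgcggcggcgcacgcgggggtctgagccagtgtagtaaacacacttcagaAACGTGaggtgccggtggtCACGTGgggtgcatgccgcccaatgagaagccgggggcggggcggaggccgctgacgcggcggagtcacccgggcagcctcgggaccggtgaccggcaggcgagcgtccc
Cry2: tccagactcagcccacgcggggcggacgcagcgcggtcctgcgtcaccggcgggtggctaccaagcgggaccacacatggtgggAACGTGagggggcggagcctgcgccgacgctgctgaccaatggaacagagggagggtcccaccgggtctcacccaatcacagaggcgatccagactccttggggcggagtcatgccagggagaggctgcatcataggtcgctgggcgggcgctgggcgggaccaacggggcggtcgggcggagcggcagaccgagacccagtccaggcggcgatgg
Nr1d1: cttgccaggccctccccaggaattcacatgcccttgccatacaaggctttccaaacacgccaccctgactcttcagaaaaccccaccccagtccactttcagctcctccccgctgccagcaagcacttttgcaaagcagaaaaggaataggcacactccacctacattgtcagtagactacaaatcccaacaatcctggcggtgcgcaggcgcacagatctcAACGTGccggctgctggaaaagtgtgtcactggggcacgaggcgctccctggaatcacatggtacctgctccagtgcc
An E-box lay 166 bases before the start of Per1 and 60 bases before that of Cry1. The Cry1 window also held an E′-box 79 bases before the start, and single E′-boxes lay 166 bases before the start of Cry2 and 28 bases before that of Nr1d1. Per3 held D-boxes 205 and 158 bases before its start. AGGTCA or its reverse lay 137 bases before the first start of Per1, and it also occurred at Clock and Nr1d2. Across all 32851 windows of the table, on both strands, CACGTG occurred in 7.15%, CACGTT in 4.68%, TTATGTAA in 0.938% and AGGTCA in 16.3%. Of the 12 windows of 9 clock genes, CACGTG was in 2 and CACGTT in 3. The other letters searched, on both strands, were TTACGTAA, TGACGTCA and the homeodomain core TAATTA. They stood in 0.119%, 1.79% and 5.29% of all windows, in that order, and in 0 of the 12. TTACGTAA, TGACGTCA, CACGTG and TAATTA read the same on both strands, and none of the motif matches above overlapped another. A match describes letters and is no evidence of binding.

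Among the 86 regions at the clock genes, 27 (31.4%) had a peak in all 4 libraries, against 21.7% of all regions. Another 10 regions (11.6%) had peaks in both AAV-GFP libraries and in none of AAV-Cre, which is close to the 11.5% over the genome. No region was marked in both AAV-Cre libraries alone, against 1.18% over the genome. With every list reduced to the length of the shortest, 3 of 51 regions were specific to AAV-GFP and 1 to AAV-Cre. The shares over all regions were not computed at that length, so these counts have no genome value beside them. In the full lists, a further 36 regions (41.9%) were found in 1 library, 24 of them in the first AAV-GFP library, which has the longest list. The share of such regions over the genome was not computed. A promoter peak in all 4 libraries was found at 9 of the 10 clock genes, against the 44.1% of protein-coding genes given above. By position, 10 of 13 promoter regions were shared by all 4 libraries, against 5 of 40 regions inside the genes. Of the 10 AAV-GFP-specific regions, 8 lay inside genes, 2 in flanks and 0 at promoters. Of the 8 inside genes, 4 were in the long gene Rora. Over all protein-coding genes, 2.93% had a promoter peak in both AAV-GFP and neither AAV-Cre library. Shares of all regions by these positions were not computed, so whether either split is particular to clock genes was not tested.

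**Figure D1:**
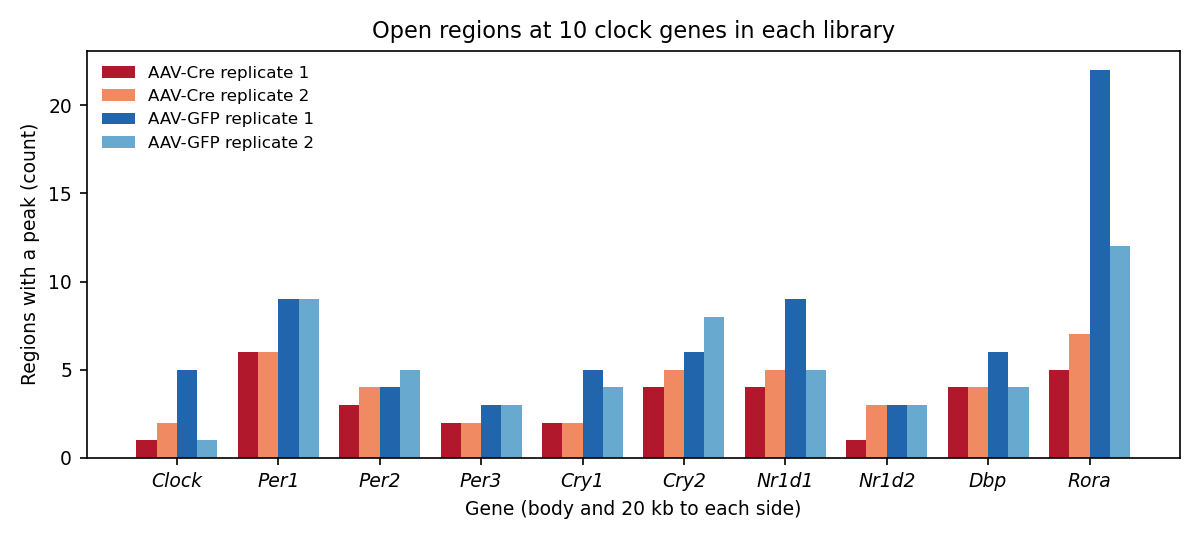
Number of regions with a peak (vertical axis, count) at each clock gene and the 20 kb on either side (horizontal axis), with a bar for each of the 2 AAV-Cre libraries (red shades) and the 2 AAV-GFP libraries (blue shades). At Rora the counts were 5 and 7 in AAV-Cre and 22 and 12 in AAV-GFP, and most other genes differ by a few regions.

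Per length, the order of the genes differed from that of the counts. Rora, 735 kb long, had 3.36 regions per 100 kb of window and Per3 3.42, while Nr1d1 had 19.0, Per1 18.2, Cry2 14.2 and Dbp 13.3. Clock, Cry1, Nr1d2 and Per2 lay between, at 3.68, 6.43, 6.66 and 7.20. The windows also hold neighbouring genes. Over all windows together, 15 of the 86 regions lay in flanks at an end of another gene, and 8 of these were shared by all 4 libraries. Whether neighbouring genes account for the differences in density was not tested. The gene table gives no exons, so exonic and intronic positions inside genes are not separated here.

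Strength was compared through ranks. The 14634 regions shared by all libraries were ordered within each library by the −log10 p that the authors' caller gave, and a rank percentile near 0 is the strongest and near 100 the weakest. The shift of a region is its mean percentile in AAV-Cre minus that in AAV-GFP, so a positive shift means a weaker rank in AAV-Cre. With 2 libraries against 2, the smallest exact two-sided permutation p is 0.333, so no shift can pass 0.05. Of the 27 shared clock regions, 2 were weaker in both AAV-Cre libraries than in both AAV-GFP libraries and 6 were stronger, while 19 had overlapping ranks. Over all shared regions, 19.7% were weaker and 19.8% stronger without overlap. Leaving out 1 library at a time gave 4 to 9 weaker and 8 to 15 stronger clock regions. With fewer libraries, groups separate more easily, and the shares over all shared regions were not computed for that setting. The median shift of the 27 clock regions was −2.81 percentile points (range −35.1 to 24.3), beside −0.0214 (SD 16.4) over all shared regions. With the first AAV-GFP library left out, the median of the clock regions was 0.502.

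**Figure D2:**
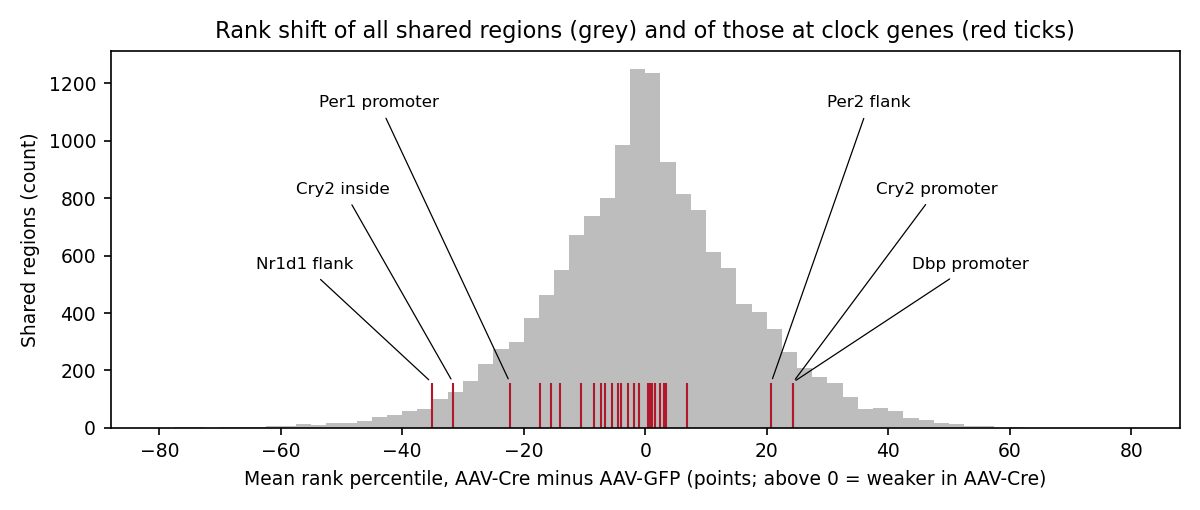
Histogram of the rank shift of all 14634 shared regions (grey; horizontal axis, percentile points, AAV-Cre minus AAV-GFP; vertical axis, count of regions), with a red tick for each of the 27 shared regions at clock genes. The ticks run from −35.1, in the flank of Nr1d1, to 24.3, at the promoters of Cry2 and Dbp, within the body of the histogram.

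Clock encodes the activator that pairs with BMAL1. It is 95.7 kb long (chr5:76209868-76305603, minus strand), and 1 of its 5 regions, the promoter, was shared by all libraries. The promoter region, chr5:76304316-76305349, had fold enrichments of 6.21 and 8.99 in the AAV-Cre libraries, against 7.85 and 9.68 in the AAV-GFP libraries. Its peaks were 491 and 849 bp wide in AAV-Cre, against 611 and 772 bp in AAV-GFP. Rank percentiles were 60.4 and 24.6 in AAV-Cre and 61.7 and 36.7 in AAV-GFP. The libraries of each group lay far apart and overlapped those of the other, and the shift of −6.68 turned to 10.6 without the second AAV-Cre library and to 5.87 without the first AAV-GFP library. No other region of Clock was seen in more than 2 libraries. The next by list rank, chr5:76248850-76249102 inside the gene, was seen in the first AAV-GFP library alone, at 4.83-fold.

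Per1, a repressor that light induces rapidly in the pacemaker (14.9 kb, chr11:69095108-69109965, plus strand), had open chromatin at both starts of the promoter table. Its strongest region in all 4 libraries was chr11:69094683-69095383, at the lower end of the gene record, which is the upstream end on the plus strand. The promoter table gives no start there, so this region was not counted as a promoter, although gene ends stood in for the start of Per2. The region's fold enrichments were 8.15 and 7.36 in AAV-Cre, against 7.68 and 9.04 in AAV-GFP. Its rank percentiles of 4.30 and 8.41 in AAV-Cre overlapped the 15.9 and 5.86 in AAV-GFP. At the second start, chr11:69099919-69100301 was a weak and narrow peak, with 4.72 and 3.76-fold enrichment in AAV-Cre, against 4.07 and 3.34 in AAV-GFP. There the rank percentiles were 39.6 and 79.5 in AAV-Cre, against 75.0 and 88.6 in AAV-GFP. The shift was −22.3, toward a stronger rank in AAV-Cre, but the groups overlapped. Of all shared regions, 8.31% moved at least as far in that direction. The shift at this start was −3.12 without the first AAV-Cre library, −41.9 without the second and −13.8 without the second AAV-GFP library. The first start, whose E-box is printed above, had a peak of 4.02-fold in the first AAV-Cre library and none in the second, against 2.75 and 3.01 in the AAV-GFP libraries (chr11:69098641-69098965). In the flank, chr11:69125187-69125624 overlaps Aloxe3 and a tRNA gene. Enrichment there was 5.53 and 4.91 in AAV-Cre, against 4.78 and 6.93 in AAV-GFP.

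Per2, a repressor whose loss disrupts behavioural rhythm in mice, had one of the strongest promoters of the set. The gene spans chr1:91415977-91459351, and the promoter table used here has no entry for it, so regions at either gene end were read as the promoter. The region at its upper end, chr1:91459110-91459838, had fold enrichments of 9.56 and 10.6 in AAV-Cre, against 9.49 and 11.7 in AAV-GFP, with widths of 688 and 673 bp in AAV-Cre and 689 and 722 bp in AAV-GFP. Its rank percentiles of 9.25 and 4.73 in AAV-Cre overlapped the 22.4 and 8.38 in AAV-GFP. Both neighbours of Per2 separated the groups, in opposite directions. At the end of Hes6, chr1:91412842-91413542 ranked at 8.76 and 24.1 in AAV-Cre, against 33.6 and 30.4 in AAV-GFP, a stronger rank in AAV-Cre (shift −15.5, and −6.45 without the first AAV-Cre library). At the end of Ilkap, chr1:91398482-91399233 ranked at 91.7 and 79.0 in AAV-Cre, against 54.3 and 74.9 in AAV-GFP, a weaker rank in AAV-Cre (shift 20.7, with 10.9 without the first AAV-GFP library and 32.4 without the second). Its fold enrichments were 4.65 and 5.47 in AAV-Cre, against 8.45 and 6.07 in AAV-GFP.

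Per3, a period gene that mice can lose with little effect on rhythm (47.7 kb, chr4:150997018-151044707, minus strand), kept its promoter open in every library. The region chr4:151044449-151045447 had fold enrichments of 8.71 and 9.24 in AAV-Cre, against 9.82 and 9.45 in AAV-GFP. The strongest peak in it was 197 and 300 bp wide in AAV-Cre, against 658 and 860 bp in AAV-GFP. In the group lists the order was the opposite, with 1454 bp in AAV-Cre, against 1141 bp in AAV-GFP. Of the printed window with the D-boxes, peaks covered 6.67% and 50.7% in AAV-Cre, against 100% in each AAV-GFP library. Rank moved the other way: percentiles were 20.2 and 17.5 in AAV-Cre, against 27.5 and 24.7 in AAV-GFP, so the groups did not overlap and AAV-Cre ranked higher in strength (shift −7.23). A weaker region inside the gene, chr4:151027086-151027459, was specific to AAV-GFP, without a peak in AAV-Cre, against 5.74 and 7.35-fold in AAV-GFP. The strongest region of the window belongs to the end of Vamp3, chr4:151057464-151058423, at 11.02 and 12.8-fold in AAV-Cre, against 12.4 and 14.4 in AAV-GFP.

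**Figure D3:**
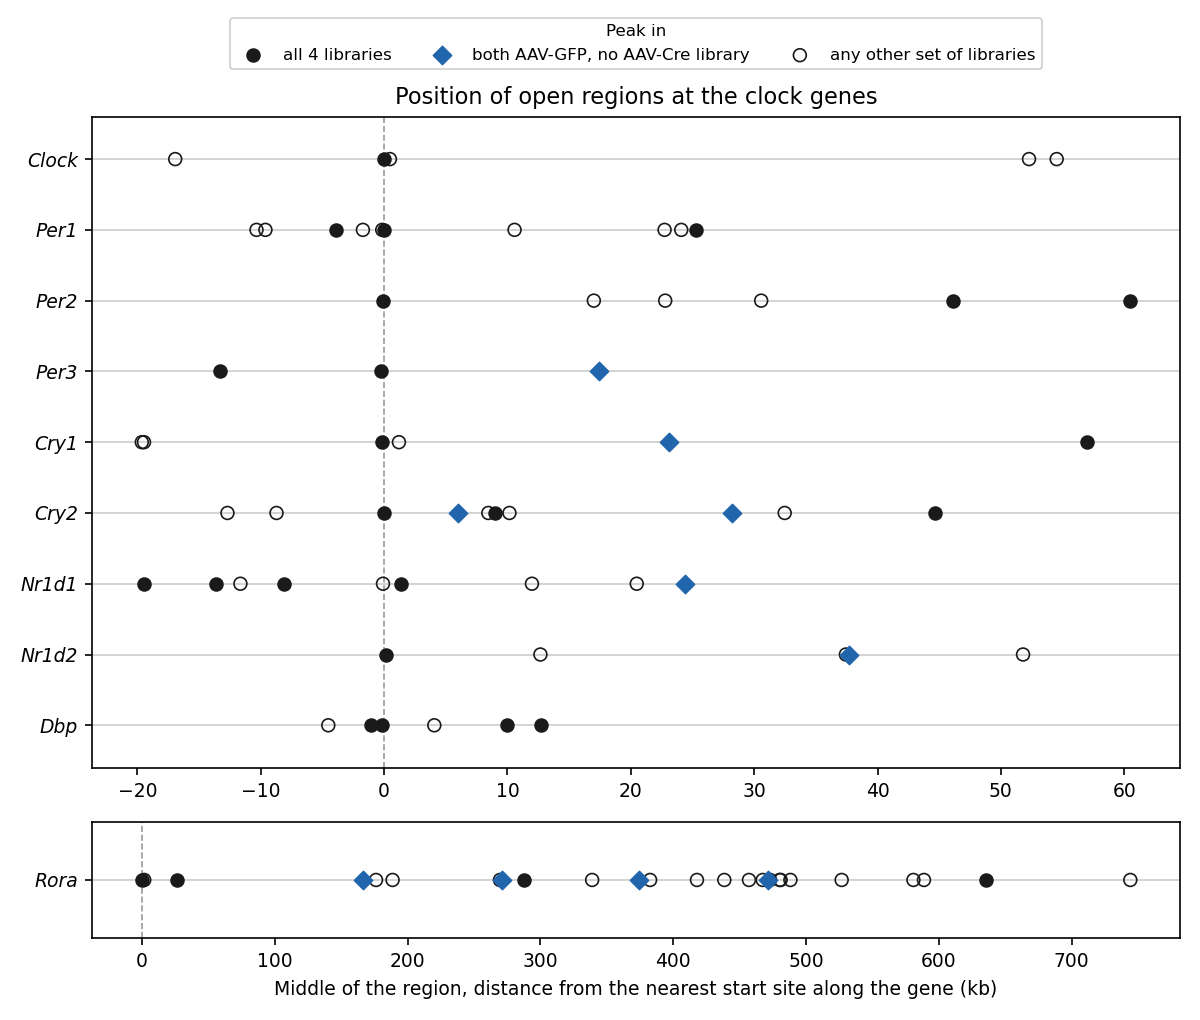
Position of every region relative to the nearest start of its clock gene (horizontal axes, kb along the gene, with Rora on its own scale below; vertical axis, gene). Filled circles are regions with a peak in all 4 libraries, blue diamonds those of both AAV-GFP and no AAV-Cre library, and open circles any other set; shared regions stand at the starts of all genes but Nr1d1, and no diamond does.

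Cry1, a potent repressor of CLOCK and BMAL1 (53.4 kb, chr10:85131700-85185054, minus strand), had a broad promoter peak at chr10:85184754-85185680. Fold enrichments were 7.86 and 6.67 in AAV-Cre, against 8.81 and 8.84 in AAV-GFP, and peaks covered the whole printed window in all 4 libraries. The rank percentiles of 25.7 and 51.5 in AAV-Cre overlapped the 42.6 and 28.6 in AAV-GFP, and the shift of 3.06 turned negative when the second AAV-Cre or the second AAV-GFP library was left out (−8.76 and −3.32). One region inside the gene, chr10:85161848-85162113, was specific to AAV-GFP, absent in AAV-Cre and at 5.89 and 6.57-fold in AAV-GFP. The strongest region of the window, at the end of Mterf2 (chr10:85127802-85128290), had 14.5 and 13.8-fold enrichment in AAV-Cre, against 17.6 and 17.2 in AAV-GFP. It ranked at 2.80 and 3.88 in AAV-Cre, against 6.16 and 4.18 in AAV-GFP, stronger by a shift of −1.82, which was −0.814 without the first AAV-GFP library and −1.01 without the first AAV-Cre library.

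Cry2, the other cryptochrome repressor (30.4 kb, chr2:92403646-92434085, minus strand), was the clock gene whose promoter ranked weaker in both AAV-Cre libraries. At chr2:92433613-92434544 the fold enrichments were 6.31 and 5.87 in AAV-Cre, against 9.62 and 8.69 in AAV-GFP. Peak widths of 932 and 566 bp in AAV-Cre bracketed the 626 and 697 bp in AAV-GFP, and peaks covered the whole printed window in each library. The rank percentiles were 31.0 and 46.0 in AAV-Cre, against 13.5 and 14.9 in AAV-GFP. Neither the folds nor the ranks of the groups overlapped, and both AAV-Cre libraries were the weaker. The shift was 24.3 (exact two-sided p = 0.333, the smallest possible with 2 libraries against 2). At least as large a move in the same direction was seen at 6.98% of shared regions, and moves in the other direction were not counted. Without the second AAV-Cre library the shift was 14.7. In the authors' lists made for each group the fold was 6.56 in AAV-Cre, against 9.79 in AAV-GFP.

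A second Cry2 region did the opposite. It lies inside the gene, 8717 bp from the start, at chr2:92424758-92425352, where the gene table also places D930015M05Rik. Its fold enrichments were 8.38 and 7.11 in AAV-Cre, against 6.66 and 5.63 in AAV-GFP. The rank percentiles were 7.91 and 18.2 in AAV-Cre, against 42.7 and 46.7 in AAV-GFP, again without overlap and here stronger in AAV-Cre (shift −31.6). At least as large a move, in the same direction, was seen at 3.08% of shared regions. Within each library the order of the pair therefore differed between the groups: the −log10 p was 15.5 at the promoter and 28.6 at the inner region in AAV-Cre replicate 1, and 13.3 and 21.4 in replicate 2. In AAV-GFP it was 53.5 at the promoter and 27.9 inside in the first library, and 37.6 and 18.7 in the second. Of 1275 pairs of a shared promoter and a shared region inside the same gene over the genome, 48 (3.76%) had the promoter below the inner region in both AAV-Cre libraries and above it in both AAV-GFP libraries. Among the clock genes this was 1 of 4 pairs, the other 3 being at Rora, and the pair was singled out after its values were seen.

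**Figure D4:**
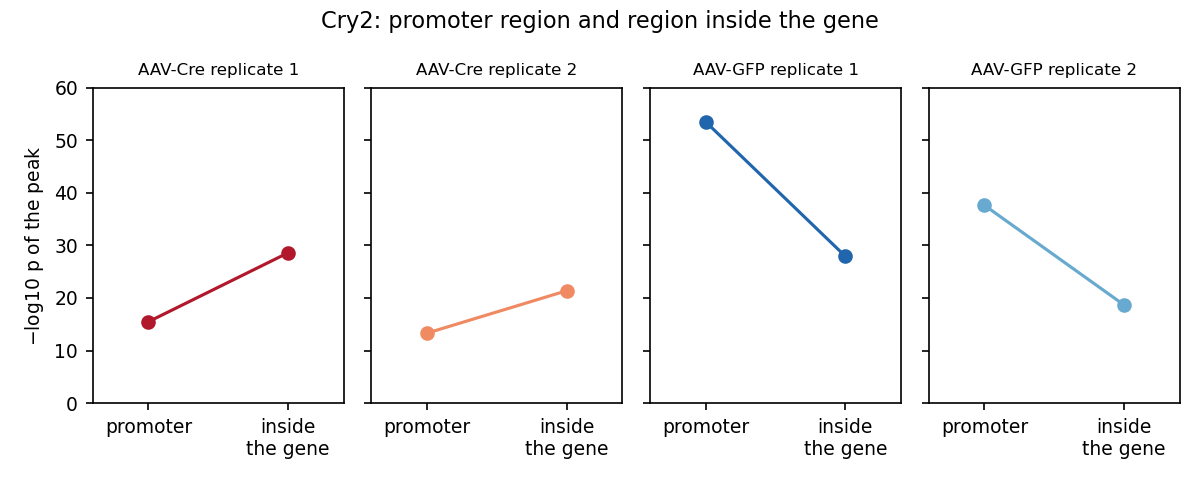
The −log10 p of the peak (vertical axis) at the Cry2 promoter and at the region inside Cry2 (horizontal axis), with a panel for each library, AAV-Cre then AAV-GFP; lines join the points of a library. The inner region is above the promoter in both AAV-Cre libraries, 28.6 against 15.5 in the first, and below it in both AAV-GFP libraries.

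Elsewhere in Cry2, both AAV-GFP-specific regions were weak. At chr2:92405777-92406026 AAV-Cre had no peak, against 3.56 and 3.99-fold in AAV-GFP. At chr2:92427987-92428171 AAV-Cre had none, against 4.45 and 4.04. In the flank, within Mapk8ip1, chr2:92389051-92389808 had 9.30 and 6.48-fold enrichment in AAV-Cre, against 7.77 and 8.95 in AAV-GFP, and this was the strongest region of the Cry2 window in 1 library of each group.

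Nr1d1 encodes REV-ERBα, the nuclear receptor that represses Bmal1 (7.45 kb, chr11:98767932-98775377, minus strand). It was the one clock gene without a peak within 1 kb of its start in all 4 libraries. With a window of 2500 bp all 10 genes had one, and with −log10 q held to 5 or more 8 genes did, since the Rora promoter also dropped out in the first AAV-Cre library. At its start, chr11:98775324-98775599 had 3.99-fold enrichment in the second AAV-Cre library, against 4.43-fold in the first AAV-GFP library, and no peak in the other library of either group. The stronger site was inside the gene, 1107 bp from the start, at chr11:98773665-98774270. It was the strongest Nr1d1 region in each library, with 6.74 and 8.11-fold enrichment in AAV-Cre, against 6.86 and 8.74 in AAV-GFP. Rank percentiles of 26.6 and 12.1 in AAV-Cre overlapped the 41.4 and 18.4 in AAV-GFP. The shift of −10.6 was 0.908 without the first AAV-GFP library.

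Upstream of Nr1d1, 7883 bp from the start, the gene table places Gm31862 over chr11:98783260-98783789. This region had the most negative shift of the 27, −35.1, and 2.10% of shared regions moved as far in the same direction. The shift was −51.6 without the first AAV-Cre library, −19.3 without the second and −18.2 without the second AAV-GFP library. Its fold enrichments were 5.48 and 7.33 in AAV-Cre, against 6.17 and 4.02 in AAV-GFP. The rank percentiles were 61.4 and 26.5 in AAV-Cre, against 63.6 and 94.6 in AAV-GFP. The groups did not overlap in rank, but the first libraries of both lay close together, and the folds did overlap. Farther out, chr11:98794521-98795157 at Msl1 also ranked stronger in AAV-Cre, by −14.1, with 4.64 and 5.24-fold enrichment in AAV-Cre, against 4.51 and 4.10 in AAV-GFP. On the other side, chr11:98750648-98751294 within Thra was specific to AAV-GFP, absent in AAV-Cre and at 3.30 and 3.64-fold in AAV-GFP.

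Nr1d2, which encodes the related receptor REV-ERBβ (35.1 kb, chr14:18204056-18239106, minus strand), had the strongest promoter of the set by list rank averaged over the 4 libraries, although that of Per2 ranked stronger in the second AAV-Cre library and in the AAV-Cre group list. At chr14:18238200-18239636 the fold enrichments were 10.01 and 8.58 in AAV-Cre, against 12.1 and 12.3 in AAV-GFP. The folds were lower in both AAV-Cre libraries, but rank percentiles of 4.24 and 11.5 in AAV-Cre overlapped the 5.91 and 4.91 in AAV-GFP. The shift was 2.47, and −1.02 without the second AAV-Cre library. Away from the promoter the gene had 1 AAV-GFP-specific region, chr14:18201254-18201516 in the flank, with no peak in AAV-Cre, against 4.66 and 4.07-fold in AAV-GFP. The region next in list rank, chr14:18226328-18226533, was seen in the second library of each group, at 5.93-fold in AAV-Cre, against 4.31-fold in AAV-GFP.

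Rora encodes RORα, the receptor that activates Bmal1 at the sites where the REV-ERBs repress it. The gene is 735 kb long (chr9:68653404-69388246, plus strand), and its regions numbered 5 and 7 in the AAV-Cre libraries, against 22 and 12 in the AAV-GFP libraries. Of the 26 regions, 12 were seen in the first AAV-GFP library alone, 2 in the second AAV-GFP library alone and 2 in the second AAV-Cre library alone. The promoter, chr9:68653382-68654041, had 4.37 and 7.75-fold enrichment in AAV-Cre, against 8.75 and 7.25 in AAV-GFP. Its rank percentiles of 94.2 and 37.6 in AAV-Cre enclosed the 54.0 and 63.9 in AAV-GFP, so the shift of 6.95 rested on the first AAV-Cre library and was −19.2 without it.

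In 3 of the 4 libraries the strongest region of Rora lay far inside the gene, at chr9:69289399-69290007, and in the second AAV-Cre library it was the promoter. It had 8.62 and 7.99-fold enrichment in AAV-Cre, against 11.7 and 11.7 in AAV-GFP, yet its rank percentiles of 28.9 and 42.03 in AAV-Cre overlapped the 34.8 and 29.3 in AAV-GFP. A second inner region, chr9:68941033-68941423, had 6.33 and 6.55-fold enrichment in AAV-Cre, against 7.84 and 9.30 in AAV-GFP. Here the fold was lower in both AAV-Cre libraries, while the rank shift was −1.07. The third, chr9:68679904-68680295, had 4.31 and 7.20-fold enrichment in AAV-Cre, against 5.88 and 5.04 in AAV-GFP.

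Rora also held 4 of the 10 AAV-GFP-specific regions, all inside the gene and all without a peak in AAV-Cre. The strongest was chr9:68820432-68820742, at 7.46 and 8.99-fold in the AAV-GFP libraries, higher than the Rora promoter in the second of them. Next came chr9:69027938-69028372, at 7.12 and 6.76-fold in AAV-GFP. Lower values were found at chr9:68924637-68925015, with 4.45 and 6.12, and at chr9:69125370-69125631, with 5.59 and 4.57. Among regions of single libraries, chr9:69071639-69071832 had the highest rank, at 6.99-fold in the first AAV-GFP library.

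Dbp, the output gene that encodes a D-box activator, is short (5.10 kb, chr7:45705100-45710203, plus strand) and lies among close neighbours. Its start region, chr7:45704768-45705401, had 3.28 and 4.79-fold enrichment in AAV-Cre, against 4.87 and 5.40 in AAV-GFP. The peaks were 185 and 546 bp wide in AAV-Cre, against 338 and 440 bp in AAV-GFP. Both folds in AAV-Cre were below those in AAV-GFP. By rank, percentiles of 88.2 and 37.9 in AAV-Cre overlapped the 46.6 and 31.0 in AAV-GFP; the shift of 24.3 rested on the first AAV-Cre library and was −0.899 without it. A region 776 bp upstream, chr7:45703923-45704471, which also overlaps Car11, had 5.05 and 3.97-fold enrichment in AAV-Cre, against 4.50 and 4.41 in AAV-GFP. The strongest region of the window, chr7:45714948-45715500, sits at the neighbours Sphk2 and Rpl18, with 7.99 and 7.60-fold enrichment in AAV-Cre, against 8.71 and 10.7 in AAV-GFP.

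**Figure D5:**
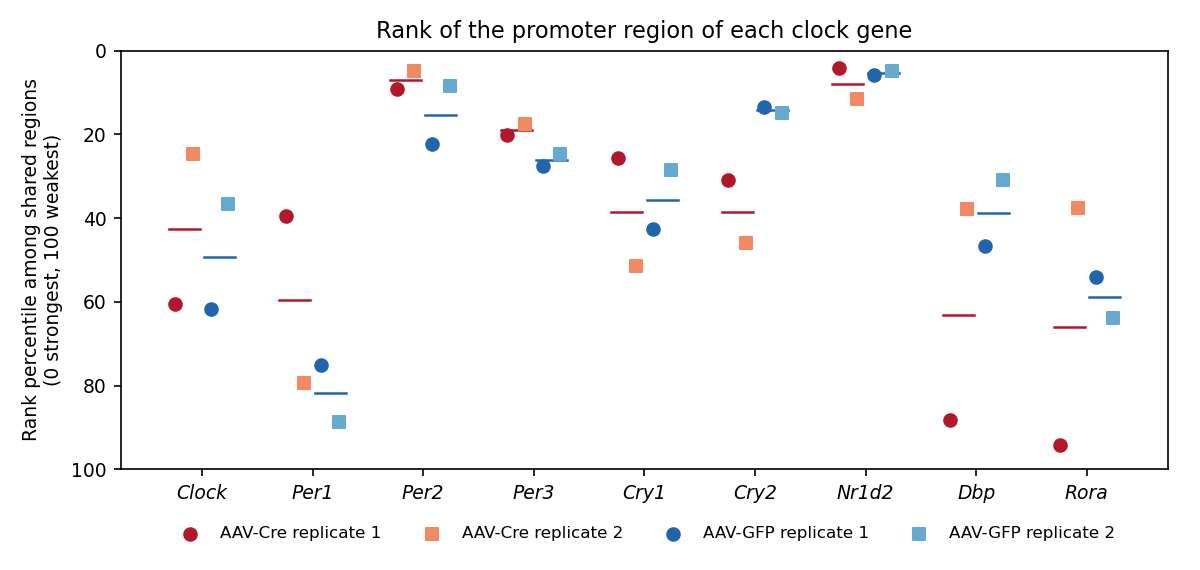
Rank percentile of the main promoter region of 9 clock genes (vertical axis, among the 14634 shared regions, 0 at the top being the strongest; horizontal axis, gene). Points are libraries (AAV-Cre in red shades, AAV-GFP in blue) and short lines the mean of each group; Cry2 is weaker in both AAV-Cre libraries, 31.0 and 46.0 against 13.5 and 14.9 in AAV-GFP, and Per3 is slightly stronger.

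Across the 9 promoters with a shared region, the median shift was 2.47 percentile points, beside 1.07 over the 7178 shared regions at gene starts. Of the 9, Cry2 was weaker in both AAV-Cre libraries, Per3 was stronger and 7 overlapped. Among all shared regions at a start, 23.0% were weaker and 15.8% stronger in both AAV-Cre libraries. By median list percentile, where 0 is the strongest peak of a list, the shared clock regions stood at 19.8 and 21.6 in AAV-Cre, against 11.8 and 13.6 in AAV-GFP. Over all shared regions the medians were 33.5 and 29.7 in AAV-Cre, against 14.4 and 23.1 in AAV-GFP, so the clock regions ranked stronger in each library. By fold the order was mixed. The median fold of the clock regions was 6.33 and 7.20 in AAV-Cre, against 7.84 and 8.74 in AAV-GFP, and over all shared regions it was 6.57 and 6.86 in AAV-Cre, against 8.97 and 8.00 in AAV-GFP. The clock regions were wider in each library, with median widths of 421 and 458 bp in AAV-Cre, against 494 and 513 bp in AAV-GFP, and over all shared regions 367 and 400 bp in AAV-Cre, against 458 and 483 bp in AAV-GFP.

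Of 22 further genes of the clock pathway, 15 had a promoter peak in all 4 libraries, 5 in 1 to 3 libraries without following the groups, and Timeless had none. Npas2, the neuronal paralogue of Clock, was marked in AAV-GFP alone, with no promoter peak in AAV-Cre, against 5.73 and 4.70-fold in AAV-GFP. Over all protein-coding genes this pattern held for 512 of 17491 promoters (2.93%), and the converse for 8. Among the 14 promoters with a shared region of their own, 5 were weaker in both AAV-Cre libraries (Bmal1, Bhlhe41, Nfil3, Hlf and Ciart) and 3 were stronger (Tef, Fbxw11 and Nampt), and the median shift was 1.41. Over all shared regions at a start, 23.0% were weaker and 15.8% stronger in this way. Hlf, a D-box activator related to Dbp, had the widest gap: 5.39 and 6.32-fold enrichment in AAV-Cre, against 15.2 and 9.32 in AAV-GFP, with rank percentiles of 77.5 and 68.5 in AAV-Cre, against 13.4 and 42.6 in AAV-GFP. Nfil3, a repressor at D-boxes, had 4.72 and 3.91-fold enrichment in AAV-Cre, against 6.59 and 6.46 in AAV-GFP. Bmal1, the partner of Clock, had 9.61 and 9.91-fold enrichment in AAV-Cre, against 13.8 and 12.6 in AAV-GFP, a small rank shift of 3.92. At Nampt, an enzyme of NAD synthesis under clock control, rank percentiles were 6.51 and 9.08 in AAV-Cre, against 23.6 and 17.7 in AAV-GFP.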

How the data were processed

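Open chromatin was measured by ATAC-seq in 2 AAV-Cre and 2 AAV-GFP libraries of mouse PVH. The submitters' processing notes name build mm10 and, as tools without stated roles, MACS2, Bowtie2, FastQC and Trim Galore. Their versions, the filters on reads, any offset for the transposase cut and the calling threshold are named in none of the sources used here. No deposited library peak had a −log10 q under 1.30. The authors deposited 6 peak lists, 1 per library and 1 per group, and the peak names of the group lists mark them as called on a pool. Each peak carries a deposited score, 10 times its −log10 q cut to a whole number, which was not analysed. They also give a fold enrichment, the authors' ratio of summit signal to background, and the −log10 p and −log10 q deposited by the authors. Fold enrichment and −log10 p served to describe and rank peaks within a list.

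Where a library had several peaks in a region, the one with the highest −log10 p gave its values. Library lists were merged at 1 bp of overlap, and genes with 20 kb flanks came from the RefSeq gene table of GRCm38.p6. Promoters are regions within 1 kb of a start in the RefSeq promoter table, which matched 9 of 10 genes; for Per2 and other unmatched genes both gene ends were used. Named were all 10 genes with their promoters, every group-specific region, the 2 highest-ranked regions per gene and the 5 highest of Rora; further regions were named after their values were seen. Of the other lists, genes whose promoter followed the groups were named by the same rule, and marker genes at other patterns were named after their values were seen. The members and lists were chosen with earlier results of these data known. Shifts were set beside the exact permutation test over 4 libraries. Ranking, list length, threshold, overlap, flank, promoter window and each library were varied, and a replicate block was tried. Scripts in Python 3.11.15 with numpy 2.4.6, pandas 2.3.3 and matplotlib 3.10.9 were tested on simulated data.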

Additional observations from a re-analysis of the deposited data

How the results depend on the processing

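The 9 clock genes with a promoter peak in all libraries numbered 9 whichever library was left out, 8 with −log10 q held to 5 or more and 10 with a promoter window of 2500 bp. The 86 regions became 51 at equal list length, 52 at that stricter q, 46 in the group lists and 54 with no flank. The 10 AAV-GFP-specific regions became 3 at equal list length and 19 in the group lists, and the AAV-Cre-specific count became 1 at equal list length. The group lists also differed in length, with 16614 peaks in AAV-Cre, against 28592 in AAV-GFP. With no flank, 15 regions were shared, 1 was weaker and 2 were stronger in AAV-Cre. The count of weaker regions was 1 with a 10 kb flank, 4 with 50 kb and 1 when ranked by fold. Leaving out 1 library at a time gave 63 to 86 regions, 27 to 31 shared and 0 to 4 specific to AAV-Cre. It gave 18 specific to AAV-GFP without the first AAV-GFP library and 35 without the second, and 14 at the lowest. Weaker regions then numbered 4 to 9, stronger ones 8 to 15, and the median shift was −8.12 to 0.502; with fewer libraries, groups separate more easily. With the replicate block, 3 regions were weaker and 11 stronger. Shares over all regions were computed for none of these alternative settings, so the counts have no genome value beside them. Same-numbered libraries did not deviate together (r = −0.0166 over 14634 regions) and were not treated as pairs.

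Single shifts reversed as follows. Ranked by fold, Cry1's promoter was at −4.26 and the Rora region chr9:68941033-68941423 at 6.18. Leaving out 1 library at a time gave −21.5 to 10.6 at Clock (5.87 without the first AAV-GFP library) and −8.76 to 13.9 at Cry1. Over the same settings the range was −1.02 to 4.83 at Nr1d2, −0.899 to 50.4 at the Dbp start, and −20.8 to 0.908 at the inner Nr1d1 region. At Rora it was −19.2 to 39.1 at the start, −43.0 to 4.50 at chr9:68679904, −11.6 to 10.9 at chr9:68941033 and −2.74 to 8.42 at chr9:69289399. The Cry2 promoter kept its direction in 9 settings (14.7 to 28.3), as did the inner Cry2 region (−44.5 to −22.0). Causes were not tested. On the gene strand alone, CACGTT was in 0 clock promoters and AGGTCA in 1.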
